A study of Homo sapiens with 6 samples.

Results

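The replication-dependent histone genes encode the linker histone H1 and the core histones H2A, H2B, H3 and H4. They were taken from the deposited table by symbol, as H1-1 to H1-6 and the H2AC, H2BC, H3C and H4C genes without pseudogenes, which gave 64 of its 59248 rows. There were 6 H1, 14 H2A, 17 H2B, 13 H3 and 14 H4 genes. RNA was sequenced from Jurkat, a human line established from a T-cell leukemia, which the growth protocol names Jurkat KO-1 without saying what the addition stands for. Of the 6 libraries, 3 came from cells overexpressing the PDCD1 28 isoform of the PD-1 receptor gene and 3 from cells carrying the vector. The labels name no other treatment, time or clone, and nothing in them places the 3 libraries of a group in separate cultures. The p-values below therefore measure the spread between libraries, which may be technical. Whether RNA was selected by its poly(A) tail is not given in the sources used here.

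Histone proteins wrap DNA into nucleosomes, and a cell that copies its genome has to make them in step with DNA synthesis. The replication-dependent genes lie in clusters on chromosomes 6 and 1, often as head-to-head pairs of an H2A and an H2B gene, and are switched on in S phase by the coactivator NPAT. Their mRNAs normally end in a conserved stem-loop in place of a poly(A) tail. The stem-loop is bound by SLBP and the transcript is cut downstream of it with the help of the U7 small nuclear RNP. Longer polyadenylated transcripts are also known from some of these genes, and replication-independent variants such as H3-3A are made from ordinary polyadenylated mRNAs throughout the cycle. A library made by poly(A) selection is known to hold few of the stem-loop transcripts.

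The stem-loops are shown for the members on which the results turn, because this element is the usual 3′ end of their mRNAs. GENCODE 29 transcripts of each member were searched on the sense strand for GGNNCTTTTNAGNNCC, and the printed stretches carry 5 bases on either side of the match. They are written 5′ to 3′ as DNA, with the 16 bases of the match in capitals. The first 5 belong to genes that were lower in overexpression, and the others to genes that were not called.
H2AC6: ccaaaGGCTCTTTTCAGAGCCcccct
H2BC6: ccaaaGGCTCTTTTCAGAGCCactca
H2BC15: acaacGGCTCTTTTCAGAGCCaccta
H2BC21: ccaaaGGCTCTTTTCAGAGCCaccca
H4C8: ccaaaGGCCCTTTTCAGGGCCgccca
H2BC5: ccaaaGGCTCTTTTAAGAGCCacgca
H2BC4: ccaaaGGCTCTTTTAAGAGCCaccca
H2AC11: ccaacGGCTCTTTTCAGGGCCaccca
H4C14: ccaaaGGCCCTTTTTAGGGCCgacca
H4C15: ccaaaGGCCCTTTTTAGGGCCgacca
A match was found in 25 of the 64 members. Another 34 members have no 3′ untranslated region in GENCODE 29 and could not be searched there, H1-2 and H2BC12 among them. H2BC11 and H3C6 have one without these letters. The 25 matches fell into 5 distinct sequences, the commonest of which was shared by 13 members. Of 19922 coding genes searched, 60 held the motif (0.301%), and 35 of these are not among the members. H4C14 and H4C15 share the printed stretch and most of their transcript.

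The promoters of 3 members with the smallest adjusted p-values follow, since their upstream elements are those by which these genes are usually described. Each is the stretch of 250 bases before the start site from RefSeq (GRCh38.p14), 5′ to 3′ on the gene's own strand. Capitals mark CCAAT, the TATA box letters TATAAA and the octamer ATGCAAAT on either strand, and adjoining or overlapping matches run together.
H1-2 (chr6:26056471-26056720, minus strand): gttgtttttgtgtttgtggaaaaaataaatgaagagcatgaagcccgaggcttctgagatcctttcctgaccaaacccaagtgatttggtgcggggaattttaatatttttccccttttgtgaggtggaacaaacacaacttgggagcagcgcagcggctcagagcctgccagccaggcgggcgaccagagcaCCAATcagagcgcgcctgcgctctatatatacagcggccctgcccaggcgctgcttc
H2AC6 (chr6:26123922-26124171, plus strand): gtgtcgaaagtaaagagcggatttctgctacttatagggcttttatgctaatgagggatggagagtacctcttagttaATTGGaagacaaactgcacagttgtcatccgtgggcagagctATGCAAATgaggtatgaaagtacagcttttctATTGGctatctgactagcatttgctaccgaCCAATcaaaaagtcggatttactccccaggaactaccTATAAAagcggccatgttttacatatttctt
H2BC11 (chr6:27132796-27133045, minus strand): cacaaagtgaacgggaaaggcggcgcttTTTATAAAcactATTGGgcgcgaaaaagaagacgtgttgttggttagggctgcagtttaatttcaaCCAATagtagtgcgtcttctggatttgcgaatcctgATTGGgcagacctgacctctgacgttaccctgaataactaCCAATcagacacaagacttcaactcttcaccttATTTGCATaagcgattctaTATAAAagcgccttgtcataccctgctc
The H2AC6 stretch is also the promoter of H2BC4 read from the other strand, and the H2BC11 stretch is that of H2AC11. Windows of 250 bases before to 50 after a start were found for 59 members. CCAAT on either strand was present in 50 of the 59 (84.7%), against 34.6% of 35116 promoter windows in all. TATAAA was present in 40 (67.8%, against 11.5%) and ATGCAAAT in 26 (44.1%, against 1.77%). The octamer matches lay in 11 of 13 H2A and 14 of 17 H2B windows and in 1 of 11 H3 windows, and none of the 6 H1 or 12 H4 windows held it. The H3 match is in 1 of the windows listed for H3C4, which is the same stretch as that of H2AC7, and the other H3C4 window has none. Among the 9 members called lower, 8 held CCAAT, 6 TATAAA and 5 the octamer. Among the 23 tested members with a window that were not called, the numbers were 18, 15 and 7. The called members include 1 H2A and 5 H2B genes, and those not called 4 and 5. The octamer numbers therefore depend on the make-up by type. A match describes the letters only and is not evidence of binding.

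Values are estimated counts per gene, which are whole numbers in the deposited table, and CPM, which here means estimated counts per 1000000 after scaling by TMM library factors. Library totals ran from 59911578 to 84220970. PDCD1, the overexpressed gene, had 945, 1059 and 807 estimated counts in the overexpression libraries and 14, 18 and 15 in the vector libraries. Its groups did not overlap and its values followed the labels. T-cell markers were expressed, with all 10 tested and summed levels of 2407 to 2458 CPM in overexpression and 2529 to 2647 CPM in vector. Of the 10, 6 were called lower and 2 higher, with CD2 at -2.57 ± 0.11 and CD7 at -2.09 ± 0.09 on the log2 scale. Of the B-cell, myeloid, epithelial and erythroid lists, 3 of 5, 2 of 5, 1 of 5 and 1 of 4 markers could be tested. Their summed levels were 28.8 to 37.0 against 41.7 to 60.1 CPM, 0.699 to 1.13 against 1.12 to 1.81 CPM, 0.785 to 1.58 against 0.192 to 0.446 CPM and 0.121 to 0.308 against 1.03 to 20.9 CPM, overexpression first. The part of other cells in the histone results was not tested.

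Replication-dependent histone transcripts were detected at low levels. Some count was present for 61 of the 64 genes, and H1-1, H1-6 and H4C7 were listed at 0 in every library. A floor of 12 estimated counts per library was used, which stands for 3 read pairs if 1 read pair adds 4 estimated counts, and covers counting error only. Under that floor in every library lay 21 genes, those at 0 included, while 18 reached it in all 6. Those 18 were 1 H1, 3 H2A, 7 H2B, 3 H3 and 4 H4 genes.

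The expression filter, which asked for 0.151 CPM in at least 3 libraries of any group, left 33 members to be tested. These were 4 of 6 H1, 5 of 14 H2A, 10 of 17 H2B, 7 of 13 H3 and 7 of 14 H4 genes. The filter was passed in all libraries of both groups by 21 of them, through the vector group alone by 4 and through the overexpression group alone by 5, and 3 passed with libraries of both. Per kilobase of GENCODE 29 exon, tested members reached levels from 0.0174 to 9.90 CPM with a median of 0.600 CPM. H2BC12 (9.90 CPM per kilobase) and H1-2 (9.63) had the highest levels. On the same scale the polyadenylated variant genes H1-10, H2AZ1 and H3-3A stood at 175, 166 and 93.5 CPM per kilobase. Some other variant genes stood lower, with CENPA at 16.2 and MACROH2A2 at 0.746, so these 3 do not stand for all variants. Many members are annotated by their coding part alone, which shortens the length used and raises this value.

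Overexpression libraries held fewer histone transcripts in sum, and 4 genes made up 76.7% of the summed difference. The mean was lower in overexpression for 42 of the 64 members and higher for 19. Called lower at an adjusted p under 0.05 were 9 of the 33 tested members (27.3%), which is to be read against 23.4% of all 21055 genes tested. None was called higher, against 22.6% of all genes. The 9 were the linker histone gene H1-2, the H2A gene H2AC6, the H2B genes H2BC6, H2BC11, H2BC12, H2BC15 and H2BC21, the H3 gene H3C6 and the H4 gene H4C8. No member was higher at an unadjusted p under 0.05 either, and none was called higher by DESeq2 or limma-voom. The share called lower was near that of all genes tested and is not taken as a result about the histone genes. The shares among genes no more abundant than the highest member are given below. A fitted fall of at least 2-fold was called in 8 of the 33 (24.2%), against 6.22% of all genes. That background covers genes of every abundance, and at low counts mostly large changes can be called. No 2-fold share was worked out for genes as low in abundance as the members. The 8 include H3C6 and H2BC15, which passed the filter through the vector group alone and so could be called in this direction only. Of the 21 members over the filter in every library, 7 were called lower, 6 of them with a fitted fall of at least 2-fold.

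The median fitted log2 change of the 33 was -0.48, beside 0.016 over all genes. It was -0.46 with the called members whose overexpression counts lay under the floor set to the value that the floor allows. By type the medians were -0.46 for H1, 0.22 for H2A, -0.60 for H2B, -0.65 for H3 and -0.30 for H4. The fitted change was below 0 for 23 members and above 0 for 10. The overexpression and vector libraries did not overlap in 11 members that were lower in overexpression (28.6% of all genes) and in 1 that was higher, H2AC17 (30.1% of all genes). Most members are low in abundance, and among the 9933 genes with a mean CPM up to that of the highest member, 10.7% were called lower and 18.5% higher, with a median of 0.19. In bulk RNA, fewer cells in S phase and less histone mRNA per cell cannot be told apart.

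**Figure D1:**
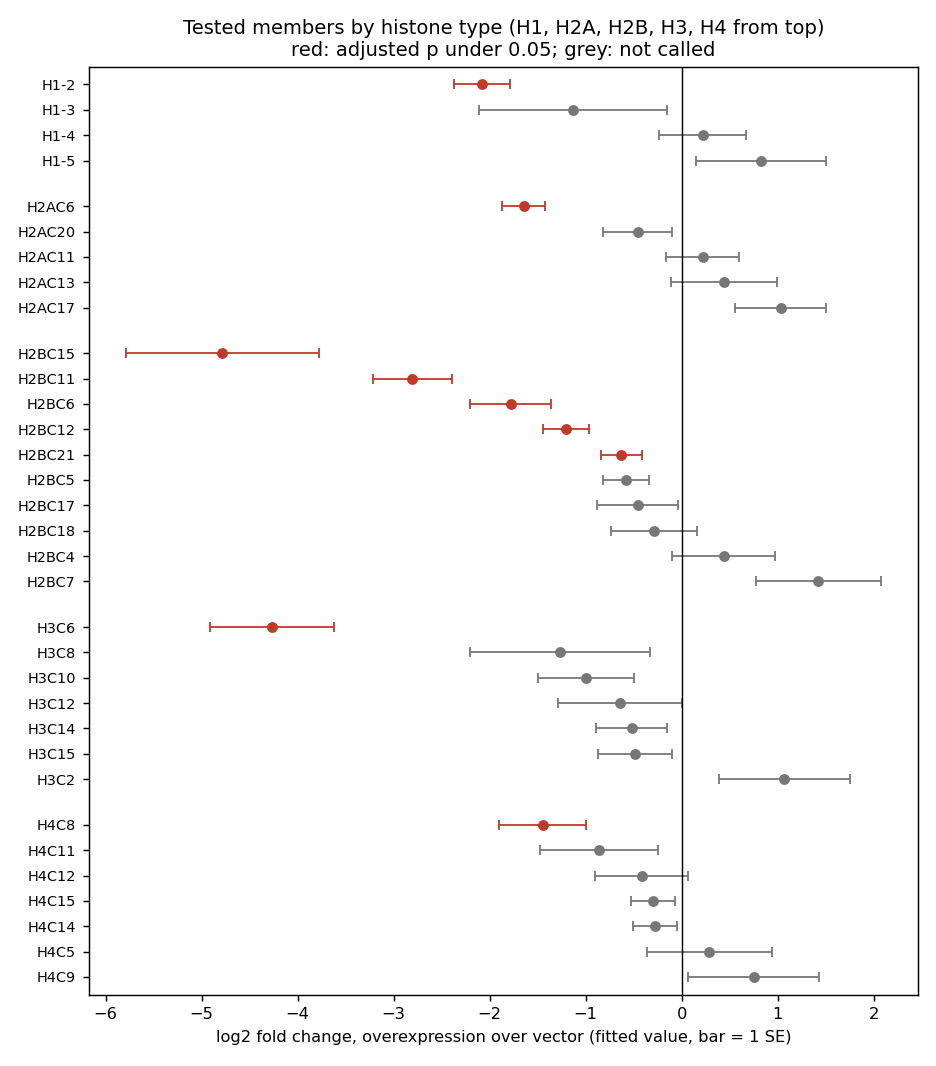
Fitted log2 fold change of overexpression over vector for the 33 tested histone members, grouped by type and ordered by value, with bars of 1 SE (3 libraries per group). The 9 red points, all left of 0, passed an adjusted p of 0.05, and the 24 grey ones did not.

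Linker histones bind the DNA that enters and leaves the nucleosome. H1-2, at chr6:26055787-26056428 on the minus strand, had the highest mean CPM of the members in vector, while in overexpression H2BC21 was higher. The overexpression libraries held 136, 159 and 182 estimated counts of it and the vector libraries 730, 482 and 774. Every overexpression library lay below every vector library, with vector replicate 2 the nearest. Its level was 2.36 ± 0.423 CPM in overexpression and 10.0 ± 3.54 CPM in vector (SD, n = 3 each), 4.24-fold lower. The fitted log2 change was -2.08 ± 0.29 (SE, edgeR adjusted p = 0.000707). The other tested H1 genes, H1-3, H1-4 and H1-5, were not called and had fitted changes of -1.13 ± 0.98, 0.22 ± 0.45 and 0.83 ± 0.68 at 0 to 27 estimated counts per library.

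H2A pairs with H2B to form the dimers that flank the H3-H4 core of the nucleosome. H2AC6 (chr6:26124145-26139116, plus strand) had 108, 135 and 140 estimated counts in overexpression and 397, 360 and 437 in vector. The groups did not overlap. In CPM, which allows for depth, vector replicate 2 was the lowest of its group, at 4.46 CPM beside 6.85 and 6.46 CPM. In CPM this was 1.89 ± 0.271 against 5.92 ± 1.28 (SD, n = 3 each), a 3.14-fold lower level with a log2 change of -1.65 ± 0.22 (edgeR adjusted p = 0.000538), the smallest adjusted p among the members. The other 4 tested H2A genes were not called. Of these, H2AC17 was the member without overlap in the upward direction, with 76, 46 and 45 estimated counts in overexpression and 10, 38 and 38 in vector (log2 change 1.03 ± 0.48, edgeR adjusted p = 0.112). Of the H2AC17 sequence, 84.01% of windows of 100 bases also occur in transcripts of another gene, mainly H3C12, whose annotated transcript overlaps it.

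H2B held 5 of the 9 calls among 10 genes tested. H2BC11 (chr6:27125897-27132750, minus strand) had 28, 28 and 40 estimated counts in overexpression and 277, 137 and 241 in vector. Vector replicate 2 was again the lowest of its group but lay above every overexpression library. The level was 0.478 ± 0.131 against 3.35 ± 1.55 CPM (SD, n = 3 each), 7.01-fold lower, with a log2 change of -2.80 ± 0.41 (edgeR adjusted p = 0.000908). H2BC12 (chr6:27146418-27146798, minus strand) had 114, 218 and 137 estimated counts against 303, 353 and 419. It was 2.31-fold lower, at 2.28 ± 0.598 against 5.27 ± 0.911 CPM, with a log2 change of -1.21 ± 0.24 (edgeR adjusted p = 0.00375). Of its windows of 100 bases, 28.4% are shared with another gene, H2BFS, listed in the table as H2BS1, so reads may be counted under either. H2BS1 had 1, 8 and 0 estimated counts against 11, 24 and 17.

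H2BC6 was lower as well, and H2BC21 by the smallest amount of the 9. H2BC6 had 19, 13 and 27 estimated counts in overexpression and 44, 72 and 95 in vector (3.44-fold, log2 change -1.78 ± 0.42, edgeR adjusted p = 0.00944). H2BC21, on chromosome 1, had 197, 202 and 122 against 250, 311 and 248. In H2BC21 the groups came close without overlapping, and the fall of 1.55-fold (log2 change -0.63 ± 0.21, edgeR adjusted p = 0.0412) did not pass in 6 of 14 other settings. Leaving out overexpression replicate 2 or 3, or vector replicate 1 or 3, gave H2BC21 adjusted p-values of 0.0837, 0.116, 0.113 and 0.0651.

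H2BC15 was at the edge of detection, with 1, 0 and 0 estimated counts in overexpression and 12, 15 and 11 in vector. It passed the filter through the vector group alone, so it could only differ in this direction. Its overexpression values lie under the floor and its vector values near it, so the fitted log2 change of -4.78 ± 1.00 (edgeR adjusted p = 0.00511) is no measure of size, and it ranged to -6.69 without overexpression replicate 1. H2BC5, among the more abundant members, had 170, 114 and 159 estimated counts against 198, 237 and 242. Its groups did not overlap, yet the log2 change of -0.58 ± 0.24 missed the threshold (edgeR adjusted p = 0.0802). H2BC7 had the largest upward fitted change of any member, 1.42 ± 0.65, from 16, 30 and 68 estimated counts in overexpression and 18, 18 and 7 in vector, which overlapped (edgeR adjusted p = 0.108).

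**Figure D2:**
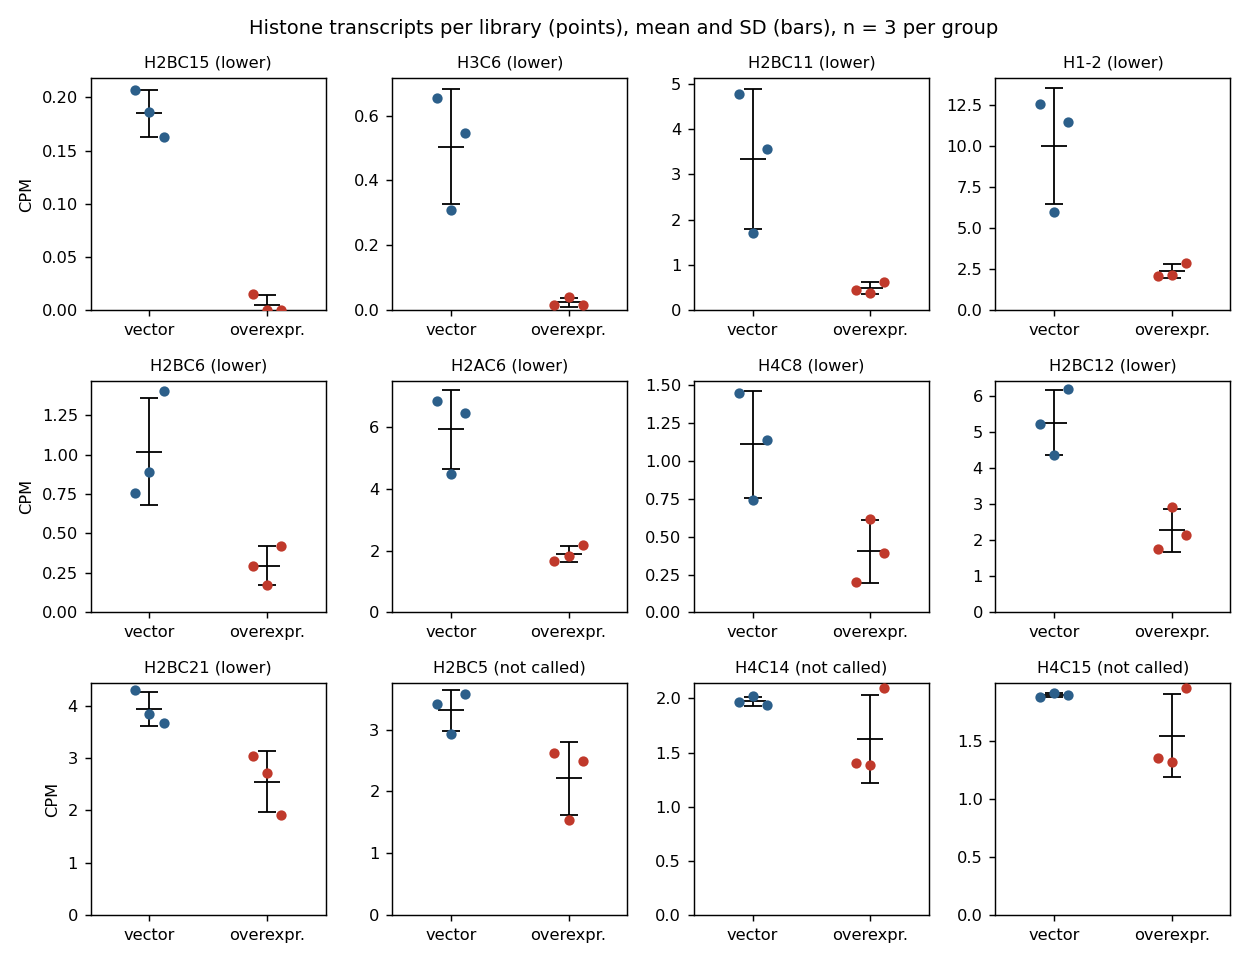
CPM in each library for the 9 members called lower and for H2BC5, H4C14 and H4C15, the other members among the 8 most abundant. Points are libraries and bars the mean and SD of 3 libraries; in the 9 called members every overexpression point lies below every vector point, and vector replicate 2, the middle blue point, is the lowest vector value in H1-2, H2BC11, H3C6, H2AC6, H4C8 and H2BC12.

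H3 and H4 form the tetramer at the centre of the nucleosome. H3C6 (chr6:26224199-26227473, plus strand) had 1, 3 and 1 estimated counts in overexpression and 38, 25 and 37 in vector. All overexpression values were under the floor of 12 and all vector values over it. Set against that floor, the vector level of 0.504 CPM was 2.83 times the level that 12 estimated counts stand for in the overexpression libraries. The fitted log2 change was -4.27 ± 0.64 (edgeR adjusted p = 0.0010) and depends on how the fit treats counts near 0. H3C6 also passed the filter through the vector group alone. The other 6 tested H3 genes were not called. H3C8 had the lowest fitted change of any member not called, -1.27 ± 0.93, at 5, 14 and 0 against 8, 18 and 20 estimated counts. H3C14 and H3C15 share every window of 100 bases and carried the same estimated counts in 5 of 6 libraries, so they are not separate measurements.

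H4C8 (chr6:26277609-26285638, minus strand) was the H4 gene called lower. It had 13, 46 and 25 estimated counts in overexpression and 84, 60 and 77 in vector, with a narrow gap between overexpression replicate 2 and vector replicate 2. The mean level was 2.75-fold lower and the log2 change -1.45 ± 0.45 (edgeR adjusted p = 0.0304). This call was lost in 6 of 13 other settings, with adjusted p-values of 0.0763, 0.0917, 0.0975 and 0.0686 when overexpression replicate 1 or 3 or vector replicate 1 or 3 was left out. H4C14 had 91, 103 and 134 against 114, 163 and 131 estimated counts, and H4C15 had 88, 98 and 125 against 109, 154 and 128. In CPM the groups of both genes overlapped through overexpression replicate 3. Their fitted log2 changes were -0.28 ± 0.23 and -0.30 ± 0.23 (edgeR adjusted p = 0.356 and 0.320), and their shared windows, 94.9% and 97.1%, mean that the values are largely those of one sequence.

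Of the 31 members that could not be tested, 28 had some count, with totals over the 6 libraries of 1 to 58. Their highest single value was 33, for H3C11 in overexpression replicate 1, where the other values were 8, 0, 5, 4 and 3. H2BC9 was listed at 0 in all overexpression libraries and at 9, 5 and 12 in vector, and H2BC10 at 0 against 5, 0 and 4. In the other direction, H2BC14 had 17, 7 and 8 estimated counts in overexpression and 0, 4 and 1 in vector, and H4C2 had 8, 5 and 5 against 1, 0 and 3. Apart from the value of 33, these lie near or under the floor and no fold is given. They were picked out after their values were seen.

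Near-identical copies can trade reads between members, so the level was also summed over each type. Over all 64 genes the sum was 26.3, 23.5 and 27.8 CPM in overexpression and 55.1, 39.1 and 52.1 CPM in vector. The overexpression libraries lay together and below every vector library, and vector replicate 2 was the nearest to them. The means were 25.9 ± 2.16 and 48.8 ± 8.53 CPM (SD, n = 3 each), 1.88-fold lower in overexpression, a ratio of 0.531. That ratio stayed between 0.483 and 0.568 when single libraries were left out. Without H3C15 and H4C15, near-copies of H3C14 and H4C14, it was 0.517.

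The H1 sum was 13.3, 6.63 and 12.1 CPM in vector and 2.77, 2.77 and 3.57 CPM in overexpression, 3.51-fold lower in mean. The H2B sum was 21.04, 15.7 and 20.7 CPM in vector and 10.6, 9.67 and 10.7 CPM in overexpression, 1.85-fold lower. The H2A sum was 9.19, 7.65 and 9.27 CPM in vector and 5.33, 4.39 and 5.08 CPM in overexpression, 1.76-fold lower. In these 3 types the groups did not overlap, whereas in H3 and H4, with every copy counted, they did. The H1 and H2A falls rest on 1 gene each. H1-2 held 2.36 of the mean H1 sum of 3.04 CPM in overexpression and 10.0 of 10.7 CPM in vector. H2AC6 held 1.89 of the mean H2A sum of 4.94 CPM in overexpression and 5.92 of 8.70 CPM in vector. The H3 sum was 4.59, 3.07 and 3.61 CPM in vector and 3.16, 2.11 and 2.19 CPM in overexpression, 1.51-fold lower in mean. The H3 overlap lay between overexpression replicate 1 and vector replicate 2. It rests on counting both H3C14 and H3C15, which are not separate measurements. H3C15 alone held 0.601 CPM in that overexpression library and 0.434 CPM in that vector library. The H4 sum was 6.99, 6.04 and 6.42 CPM against 4.50, 4.59 and 6.19 CPM, 1.27-fold lower in mean. Differences between the types were not tested.

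**Figure D3:**
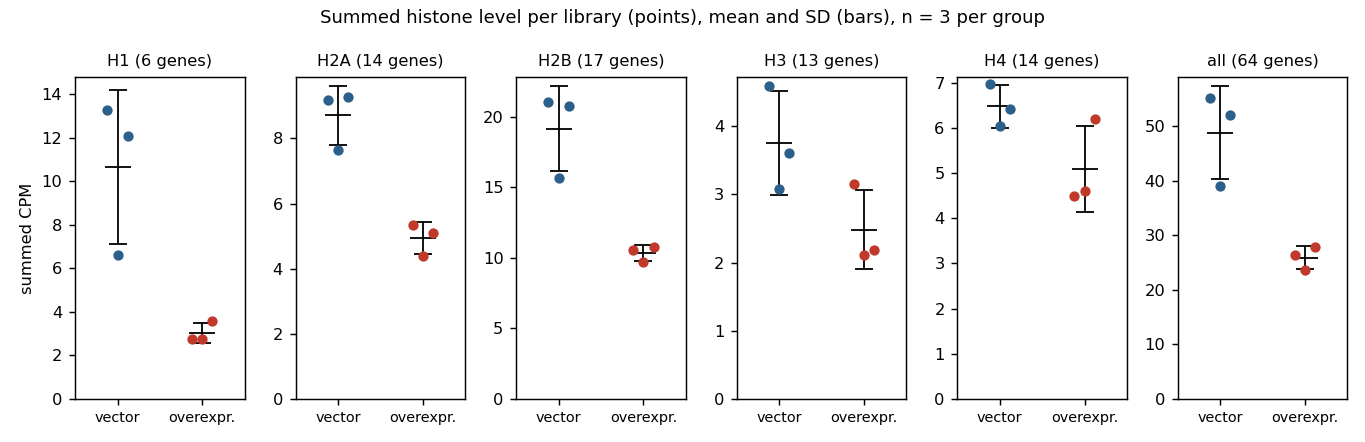
Summed CPM per library for each histone type and for all 64 members (points), with the mean and SD of 3 libraries per group (bars). The groups are apart for H1, H2A, H2B and the total of 25.9 against 48.8 CPM. They overlap for H4 and, with both H3C14 and H3C15 counted, for H3.

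A few genes carried most of the summed difference of 22.9 CPM. H1-2 made up 7.64 CPM of it (33.4%), H2AC6 4.04 CPM (17.6%), H2BC12 2.99 CPM (13.1%) and H2BC11 2.87 CPM (12.5%). These 4 genes thus account for 76.7% of the difference between the group means. The 9 called members, which the call itself selects, summed to 10.3 ± 0.688 CPM in overexpression and 31.3 ± 7.71 CPM in vector. They made up 39.97% of the histone sum in overexpression and 63.6% in vector. The other 55 summed to 15.6 ± 2.49 and 17.5 ± 0.851 CPM, and their groups overlapped. Without H1-2 the ratio of the total was 0.607.

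Many H2A and H2B genes share a promoter, and 10 such head-to-head pairs with start sites within 1000 bases were found in GENCODE 29, of which 4 had both genes tested. In 3 of these 4, 1 partner was called lower and the other was not called. A call in 1 partner alone is not by itself a difference between the partners. H2BC11 and H2AC11 start 292 bases apart (chromosome 6, 27132750 and 27133042). H2BC11 was called lower, while H2AC11 had 56, 60 and 45 estimated counts in overexpression and 20, 70 and 55 in vector, which overlapped (log2 change 0.22 ± 0.38, edgeR adjusted p = 0.670). The log2 ratio of H2BC11 over H2AC11 was -0.75 in overexpression and 2.28 in vector in mean, with no overlap. H2BC4 and H2AC6 start 219 bases apart (26123926 and 26124145). Here the H2A gene was called lower, while H2BC4 had 48, 50 and 65 against 10, 52 and 65 estimated counts (log2 change 0.44 ± 0.54, edgeR adjusted p = 0.540). The log2 ratio of H2BC4 over H2AC6 was -1.23 in overexpression and -3.59 in vector in mean, without overlap.

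In the pair H2AC17 and H2BC17, 314 bases apart, neither gene was called. Their log2 ratio was 1.64 in overexpression and 0.088 in vector in mean, again without overlap. H2BC21 and H2AC20 on chromosome 1, 323 bases apart, gave log2 ratios of 2.12 and 2.37, which overlapped. Only H2BC21 was called, yet the fitted changes of the 2 genes, -0.63 and -0.46, were alike. With 3 libraries against 3 an exact two-sided permutation test cannot go below 0.1, so no pair could have passed 0.05. It gave 0.1 for the first 3 pairs and 0.5 for the last, or 0.133 and 0.5 adjusted over the 4 pairs. Ratios were taken with 0.5 estimated counts added to each gene. The strand setting of the counting is not given, and the pairs are transcribed away from each other.

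**Figure D4:**
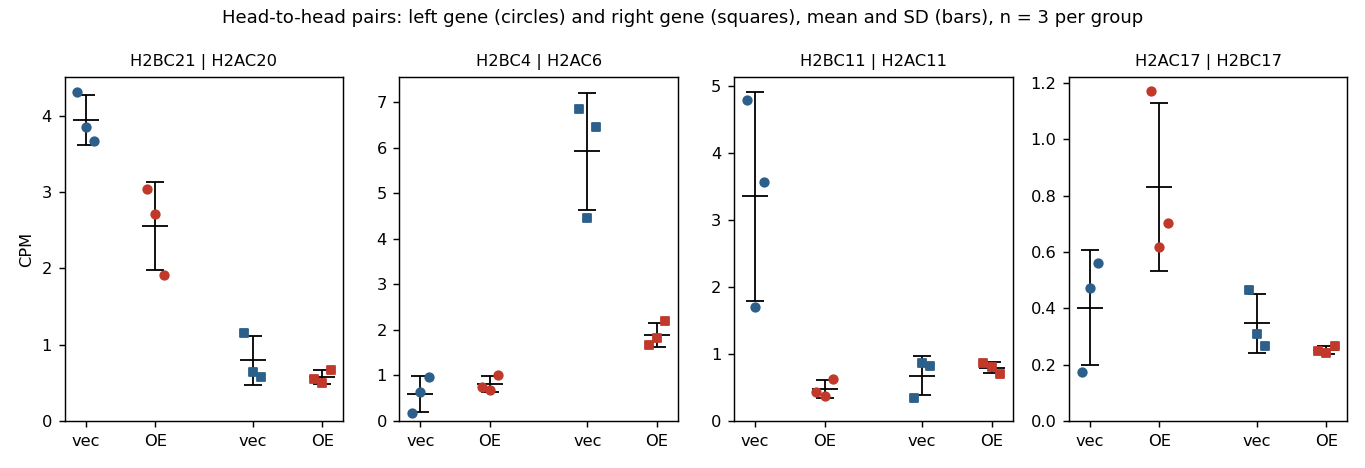
CPM per library for the 4 head-to-head pairs with both genes tested, left gene as circles and right gene as squares, with mean and SD of 3 libraries (bars). In H2BC4 and H2AC6 the H2A gene is lower in overexpression and in H2BC11 and H2AC11 the H2B gene, while the partner's groups overlap.

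The members called lower were compared with the others in what the annotation says of their 3′ ends. A stem-loop match was found in 5 of the 9 called members, 15 of the 24 tested and not called, and 5 of the 31 not tested. In all 5 called members with a match, a GENCODE 29 transcript runs at least 200 bases past it. Among those not called this held for 11 of 15, and among those not tested for 2 of 5. A poly(A) signal, AATAAA or ATTAAA, lies past the stem-loop in 4 of the 9, 10 of the 24 and 1 of the 31. These are numbers of annotated transcripts, and the table, which is per gene, does not separate the forms that end at the stem-loop from longer ones. Over 10% of windows of 100 bases were shared with other genes in 1 of the 9, 11 of the 24 and 4 of the 31.

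Genes listed here as replication-independent histone variants were called lower or not at all. Such variants take the place of the canonical histones outside S phase or at particular sites. Tested were 15 of the 25 that the table lists, and 8 were called lower and 0 higher, with a median of -0.49. H3-3A, one of the H3.3 genes, was at 197 ± 1.34 CPM in overexpression and 391 ± 16.7 CPM in vector (SD, n = 3 each), a log2 change of -0.99 ± 0.05 (edgeR adjusted p = 3.79e-06). H3-3B, the other H3.3 gene, was not called (-0.08 ± 0.05, edgeR adjusted p = 0.215). H2AW, in a small histone cluster of chromosome 1, was at 4.42 ± 0.662 against 19.7 ± 1.29 CPM (log2 change -2.15 ± 0.14, edgeR adjusted p = 1.64e-05). H2AW and H2BU1 (log2 change -1.13 ± 0.21) are among the 8 called lower. H2BS1 had the lowest fitted change of the list, -2.48 ± 0.94, and was not called (edgeR adjusted p = 0.0618). Whether H2AW, H2BU1 and H2BS1 are replication-independent was not checked. The counts, the median and the lowest changes of this list may therefore not describe the variants. H1-10, a linker variant, changed by -0.53 ± 0.05. No gene of this list was higher at an unadjusted edgeR p under 0.05, or called higher by DESeq2 or limma-voom.

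Of 41 tested genes of histone mRNA transcription and 3′ end processing, 22 were called lower and 10 higher, with a median of -0.24. SLBP, the stem-loop binding protein, was at 104 ± 4.14 CPM in overexpression and 148 ± 13.9 CPM in vector (SD, n = 3 each), a log2 change of -0.51 ± 0.07 (edgeR adjusted p = 0.000687). NPAT and CASP8AP2, which act at the histone locus body, were not called, at -0.10 ± 0.06 and -0.07 ± 0.05 (edgeR adjusted p = 0.164 and 0.309). NPAT passed without vector replicate 2 alone. CPSF3, the nuclease that cuts histone pre-mRNA, YY1 and the decay factor UPF1 were lower, with log2 changes of -0.95 ± 0.05, -0.73 ± 0.04 and -0.53 ± 0.04. ZNF473, a U7-associated zinc finger protein, CDK2, the kinase that activates NPAT, and NELFE were higher, at 0.64 ± 0.06, 0.63 ± 0.04 and 0.44 ± 0.05.

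Histone chaperones carry new histones to DNA. Of 33 tested, 20 were called lower and 4 higher, with a median of -0.25. NCL, SET and HIRA, the last a chaperone of H3.3, were lower (-0.81 ± 0.04, -0.72 ± 0.05 and -0.84 ± 0.06), and MMS22L, VPS72 and CABIN1 were higher (0.37 ± 0.06, 0.41 ± 0.07 and 0.28 ± 0.05). The 43 S phase genes were divided, with 14 lower, 9 higher and a median of -0.04. RRM1, BLM and DTL were among the lower (-0.39 ± 0.04, -0.39 ± 0.05 and -0.48 ± 0.06) and CDC45, CENPU and WDR76 among the higher (0.49 ± 0.05, 0.65 ± 0.06 and 0.48 ± 0.06). Their summed level was 6873 to 6982 CPM in overexpression and 6978 to 7614 CPM in vector, which overlapped. Without vector replicate 2, 14 S phase genes were called higher. Over all genes, calls rose in both directions in that setting, to 5576 lower and 5292 higher from 4937 and 4768.

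RNAs without a poly(A) tail moved in both directions. Of 29 in the table only 6 passed the filter, and 17 lay under the floor of 12 in every library. RPPH1, the RNA of ribonuclease P, had 0, 29 and 36 estimated counts in overexpression and 505, 487 and 473 in vector (log2 change -4.50 ± 0.76, edgeR adjusted p = 0.00177). RN7SL2, an RNA of the signal recognition particle, had 1692, 742 and 1869 against 26, 438 and 74 (log2 change 3.20 ± 0.80, edgeR adjusted p = 0.0122). RN7SL1 had 806, 386 and 768 against 54, 216 and 66 (log2 change 2.68 ± 0.49, edgeR adjusted p = 0.00273). Sequence shared by RN7SL1 and RN7SL2 was not worked out, so they may not be separate measurements. SNORA73B was also called higher, and that call was lost in 8 of 14 other settings. Vector replicate 2 lay nearest to the overexpression libraries in both RN7SL genes, as it did in H1-2 and H2BC11, and without it the RN7SL2 and RN7SL1 changes were 4.78 and 3.36. The RPPH1 change was -3.93 without overexpression replicate 1 and -5.16 without replicate 3. The part of differences in RNA selection in the histone results was not tested.

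Genes that lie among the histone genes on chromosome 6, between positions 25726132 and 27893843, were more often called higher than lower. Of 43 such genes 16 were tested, of which 10 were called higher and 2 lower, with a median of 0.68. The butyrophilin genes BTN2A2, BTN3A1 and BTN3A2 were higher, by 1.00 ± 0.06, 0.90 ± 0.06 and 0.81 ± 0.06. HMGN4, which encodes a nucleosome-binding protein, and ABT1 were lower, by -0.34 ± 0.05 and -0.23 ± 0.05. In these neighbours as in the histone genes, lists are described by their counts and medians alone, beside 23.4% lower, 22.6% higher and a median of 0.016 over all genes.

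**Figure D5:**
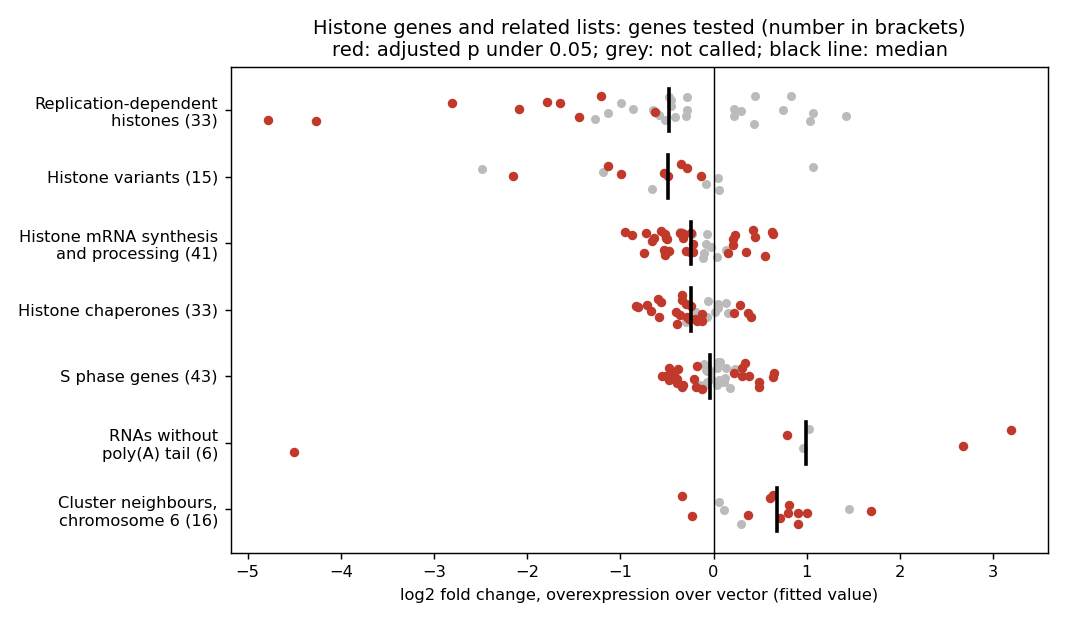
Fitted log2 fold changes of the tested genes in the histone set and in each companion list, with the number tested in brackets, called genes in red and the median as a black line. The histone members and the genes listed as variants have medians near -0.5 and no called gene right of 0. The cluster neighbours have a median of 0.68.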

How the data were processed

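The submitters' processing notes name fastp 0.23.2, STAR 2.7.10a, StringTie and DESeq2 with build hg38, and give no role for each. The authors deposited one table of whole-number expected counts (estimated counts) per gene symbol for 6 libraries, unscaled. Annotation release, strand setting and the treatment of reads that match several genes are not given in the sources used here. Low values favoured multiples of 4 in most columns, yet 1 was the most frequent value, so what 1 read pair adds is not settled and no counting interval is given.

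Filtering on expression, TMM scaling and the quasi-likelihood F test of overexpression against vector were done in edgeR 4.0.16 under R 4.3.3, without further terms. P-values were adjusted over 21055 genes by the Benjamini-Hochberg method, with a threshold of 0.05. CPM scale the deposited estimated counts to 1000000 per library. SE came from the same F statistic. The test was tried on simulated counts. Positions and transcripts came from GENCODE 29 (40186 of 59248 symbols matched, all 64 members), promoters from RefSeq. Alternatives were DESeq2 1.42.0, limma-voom (limma 3.58.1), other scalings, no filter or a stricter one, the replicate number as a block and single libraries left out. Division of the values by 4, removal of H3C15 and H4C15, and a minimum of 12 estimated counts were added after seeing the data. Figures used matplotlib 3.10.9. Members and lists were chosen with earlier results of these data known. Named in full were members called or among the 8 most abundant tested, and in other lists up to 3 genes per direction by adjusted p, besides SLBP, NPAT, CASP8AP2 and PDCD1. H3-3B, H2AZ1, H2BS1, H2BU1, CENPA, MACROH2A2, CD2, CD7, H2AC11, H2BC4 and H2AC17 were named after their values were seen.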

Additional observations from a re-analysis of the deposited data

How the results depend on the processing

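The count of 9 members called lower was 7 to 9 under DESeq2, limma-voom, other scalings, no filter, a fitted fall of at least 2-fold, single libraries left out and the settings added after seeing the data. Under the stricter filter (means of 1 CPM and 50 estimated counts or more) it was 5 of 8 members tested, all 5 among the 9; fewer genes were tested there. H2BC9, not tested otherwise, was called lower without the filter and without overexpression replicate 1. None was called higher in any setting. H1-2, H2AC6, H2BC11, H2BC12, H2BC6, H3C6 and H2BC15 kept their call wherever they were tested, and H2BC21 and H4C8 lost theirs in 6 settings each. Same-numbered libraries showed no shared deviation (correlations of 0.0147, 0.00532 and 0.0127), and the main fit did not pair them. Such correlations cannot show whether same-numbered libraries were prepared together. With the replicate block, 8 members were called lower and 8690 genes in all, against 9705, and H4C8 was lost (adjusted p = 0.0694). The median of the tested members ranged from -0.90 (stricter filter) to -0.33 (without vector replicate 1). Upper-quartile factors moved the median of all genes from 0.016 to 0.065. The low counts limit all but about 18 members, and reads shared between copies cannot be assigned from this table.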
